A study of Neurospora crassa OR74A and Aspergillus nidulans FGSC A4 with 22 samples.

Results

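The glycoside hydrolase families GH7 and GH6 hold the main cellulases that filamentous fungi secrete when they grow on crystalline cellulose. The members followed here were 10 genes, 5 in *Neurospora crassa* and 5 in *Aspergillus nidulans*, of 20178 genes in the tables of both species. They were chosen by gene identifier. The GH7 genes are *cbh-1* (NCU07340), *gh7-1* (NCU05057) and *gh7-2* (NCU04854) in *N. crassa*, and *cbhA* (AN5176), *cbhB* (AN0494) and *eglB* (AN3418) in *A. nidulans*. The GH6 genes are *gh6-2* (NCU09680) and *gh6-3* (NCU07190) in *N. crassa*, and *cbhC* (AN5282) and *cbhD* (AN1273) in *A. nidulans*. The annotation and the pairing across species come from the study's lists of genes induced on cellulose, which were made from the same libraries. That all of them were higher on cellulose is therefore partly fixed by how they were chosen, and the values below describe how far and how unequally they moved.

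Cellulose is a chain of glucose units packed into crystals. Cellobiohydrolases thread the end of a single chain into a tunnel and release the disaccharide cellobiose step by step, the GH7 enzymes from the reducing end and the GH6 enzymes from the nonreducing end. Endoglucanases cut within a chain and so open new ends. In both fungi the genes are transcribed when cellulose is the carbon source. Their full induction needs a zinc cluster transcription factor called CLR-2 in *N. crassa* and ClrB in *A. nidulans*.

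The libraries compared were wild-type *N. crassa* hyphae (OR74A) moved for 4 h into medium with 2% Avicel, a microcrystalline cellulose, and the same wild type moved for 4 h into medium with no carbon source, both at 25°C after 16 h of growth in 2% sucrose. Wild-type *A. nidulans* (FGSC A4) was moved for 6 h into 2% Avicel or into medium with no carbon source, both at 37°C after 16 h of growth in 1% glucose. Each of these 4 groups had 3 libraries from replicate cultures. Of the 22 samples of the series, the 10 from the Δ*clr-2*, Δ*clrB* and Pc2 strains were not analysed here. The species differed in temperature, hours, sugar before the shift, minimal medium and inoculum, and these cannot be told apart from the species themselves.

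For each species the values are the authors' mean of a group, in normalized counts (reads on a gene's unique exons divided by a size factor for each library). A single mean per group allows no test, so each difference is given as the ratio of the Avicel mean to the no carbon mean, and 3 things are set beside it. The first is the share of all genes that were at least 4-fold higher. The second is the counting error. The third is a yardstick for the spread between libraries, taken from genes with means of 20 to 60. Their reads in each library could be worked out from the mean, and genes without reads in every library were left out. At such low means this spread holds counting error as well as differences between cultures, most of all in a shallow library. The root mean square standard deviation of log2 counts between 3 libraries of a group in *N. crassa* was 0.809 on Avicel (406 genes), against 0.702 on no carbon (445 genes). In *A. nidulans* it was 0.561 on Avicel (542 genes), against 0.587 on no carbon (562 genes). These values give a log2 ratio a standard error of 0.618 (*N. crassa*) or 0.469 (*A. nidulans*). It is a yardstick from genes of low counts and not a test of the members. The root mean square is raised by the genes of widest spread. Median standard deviations of the same genes were lower. In *N. crassa* they were 0.547 on Avicel and 0.415 on no carbon, and in *A. nidulans* 0.363 on Avicel and 0.411 on no carbon. Limits built on the medians would be narrower, so a difference called within the limit is so by this yardstick only. The standard error of a difference between genes of the same species treats them as independent, though both were measured in the same libraries. The libraries behind the means held an estimated 9.67 to 112 M counted reads for *N. crassa* and 37.7 to 48.3 M for *A. nidulans*, and 1 *N. crassa* Avicel library stood apart with a size factor of 0.169, against 0.884 and 0.957 for the others of its group. Each library weighs equally in a mean, and how far the members' Avicel means rest on that library could not be checked. Genes of the cytoskeleton, translation and glycolysis moved little beside the cellulases, with log2 ratios of 0.26 for actin, 0.27 for β-tubulin, 0.34 for elongation factor *tef-1* and 1.10 for *gpd-1* in *N. crassa*, and 0.02, -0.40, 0.02 and 0.61 for the same proteins in *A. nidulans*. Scaling both groups to equal sums would lower every log2 ratio by 0.45 in *N. crassa*, which turns the sign for actin, β-tubulin and *tef-1*, and by 0.14 in *A. nidulans*, which turns it for actin and the elongation factor.

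All 5 members of each species were at least 4-fold higher on Avicel and none was 4-fold lower. Over the 9389 *N. crassa* genes with both means above 0, 3.00% were that much higher and 1.08% that much lower, and over the 10461 such genes of *A. nidulans* 3.38% were higher and 0.220% lower. The median log2 ratio of all genes was -0.02 (*N. crassa*) and -0.01 (*A. nidulans*). The smallest log2 ratio among the members, 4.94 for *cbhB*, was over 10 times the standard error of the yardstick. In *N. crassa* the members stood at ranks 7, 9, 12, 14 and 53 when genes were ordered by their ratio, and in *A. nidulans* at ranks 5, 6, 13, 19 and 64. In each species a single GH7 gene, *gh7-2* and *cbhB*, lay far down that order from the other members.

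**Figure D1:**
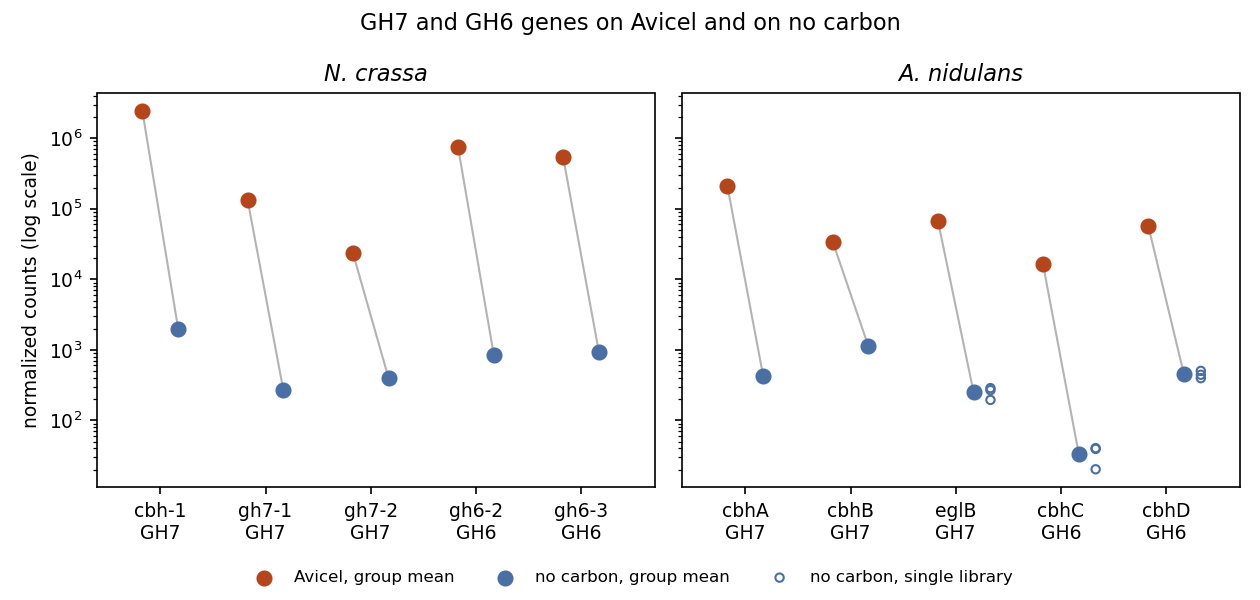
Authors' group means of the 10 genes in normalized counts (log scale), by species, with Avicel left of no carbon for each gene and open circles for single no carbon libraries where their reads could be recovered. Every Avicel mean lies above its no carbon mean, by 1213-fold for *cbh-1* and by 30.6-fold for *cbhB*, and levels of different genes are not corrected for gene length.

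The GH7 cellobiohydrolase gene *cbh-1*, which encodes the major secreted cellulase of *N. crassa*, had an authors' mean of 2398169 normalized counts on Avicel, against 1978 on no carbon. Its ratio was 1213-fold, a log2 ratio of 10.24 with a 95% interval of 10.21 to 10.28 for counting error only. No other gene of the table had as many counts on Avicel, where *cbh-1* alone took 4.18% of the table's counts, against 0.00473% on no carbon. On no carbon it stood near the middle of the table, at percentile 58.6 by counts.

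The *A. nidulans* genes listed as its partners behaved unequally. The mean of *cbhA* was 206832 normalized counts on Avicel, against 422 on no carbon, 490.5-fold higher, with a log2 ratio of 8.94 (counting interval 8.86 to 9.02). The mean of *cbhB* was 34290 on Avicel, against 1120 on no carbon, 30.6-fold higher, with a log2 ratio of 4.94 (counting interval 4.89 to 4.99). By counts the order of the pair turned with the carbon source, since *cbhA* had 6.03 times the counts of *cbhB* on Avicel and 0.377 times its counts on no carbon. Which gene leads also depends on gene length, but length cancels in the shift between conditions. That shift of 16.0-fold, a log2 difference of 4.00, exceeded 2 standard errors of a difference in *A. nidulans*, 1.33. The 3 no carbon libraries of *cbhA* have 2 possible sets of reads. In one of them the libraries held 422, 382 and 461 normalized counts and in the other 873, 153 and 239, and under both the highest library was below the authors' mean of *cbhB* on no carbon.

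Among the GH7 endoglucanase genes, *gh7-1* had an authors' mean of 132476 normalized counts on Avicel, against 267 on no carbon, 497-fold higher, with a log2 ratio of 8.96 (counting interval 8.86 to 9.06). The mean of *gh7-2* was 23819 on Avicel, against 398 on no carbon, 59.9-fold higher, with a log2 ratio of 5.90 (counting interval 5.82 to 5.99). On no carbon *gh7-2* had more counts than *gh7-1*, and on Avicel *gh7-1* had 5.56 times those of *gh7-2*. That is a shift of 8.30-fold, or 3.05 on the log2 scale, against 2 standard errors of a difference of 1.75 in *N. crassa*. The no carbon reads of both genes also have 2 possible sets. For *gh7-1* the libraries held 252, 215 and 333 normalized counts or 113, 280 and 407, and for *gh7-2* they held 504, 372 and 318 or 365, 437 and 392. The single library order of the 2 genes on no carbon therefore depends on which set holds, and some libraries may have had more of *gh7-1*.

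The *A. nidulans* endoglucanase gene *eglB* had an authors' mean of 67864 normalized counts on Avicel. On no carbon its 3 libraries held 195, 268 and 287 normalized counts, from 212, 279 and 297 reads, with an authors' mean of 249.9. The libraries on no carbon were within 1.47-fold of each other, and the Avicel mean was 272-fold higher than the no carbon mean, a log2 ratio of 8.08 (counting interval 7.98 to 8.19). By this ratio *eglB* stood between *cbhA* and *cbhB*.

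Both GH6 cellobiohydrolase genes of *N. crassa* were close to each other. The mean of *gh6-2* was 749126 normalized counts on Avicel, against 853 on no carbon, 878-fold higher, with a log2 ratio of 9.78 (counting interval 9.72 to 9.83). The mean of *gh6-3* was 533848 on Avicel, against 924 on no carbon, 578-fold higher, with a log2 ratio of 9.17 (counting interval 9.12 to 9.23). By counts they were the 4th and 7th genes of the table on Avicel, and at percentiles 40.4 and 41.8 on no carbon. Their log2 ratios differed by 0.60, within 2 standard errors of a difference, 1.75, so a difference of that size was not resolved.

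In *A. nidulans* the GH6 pair was less even. The gene *cbhC* had an authors' mean of 16221 normalized counts on Avicel. Its no carbon libraries held 40.5, 39.4 and 20.3 normalized counts, from 44, 41 and 21 reads, with an authors' mean of 33.4. It had the lowest no carbon mean of the 5 *A. nidulans* genes in counts, at percentile 14.0 of the table, and a ratio of 486-fold, or 8.92 on the log2 scale (counting interval 8.65 to 9.20). The gene *cbhD* had an authors' mean of 57462 on Avicel, and its no carbon libraries held 443, 397 and 503 normalized counts, with an authors' mean of 448. Its ratio was 128-fold, or 7.004 on the log2 scale (counting interval 6.93 to 7.08). The ratio of *cbhC* to *cbhD* was 0.282 on Avicel, and 0.0913, 0.0993 and 0.0403 in the 3 no carbon libraries. The Avicel ratio, taken from the group means, lay above that of every no carbon library, but its spread between Avicel libraries is not known. The shift of 3.79-fold between the means, 1.92 on the log2 scale, exceeded 2 standard errors of a difference. The GH6 gene *cbhC* and the GH7 gene *cbhA* had almost equal log2 ratios, with a difference of 0.01.

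**Figure D2:**
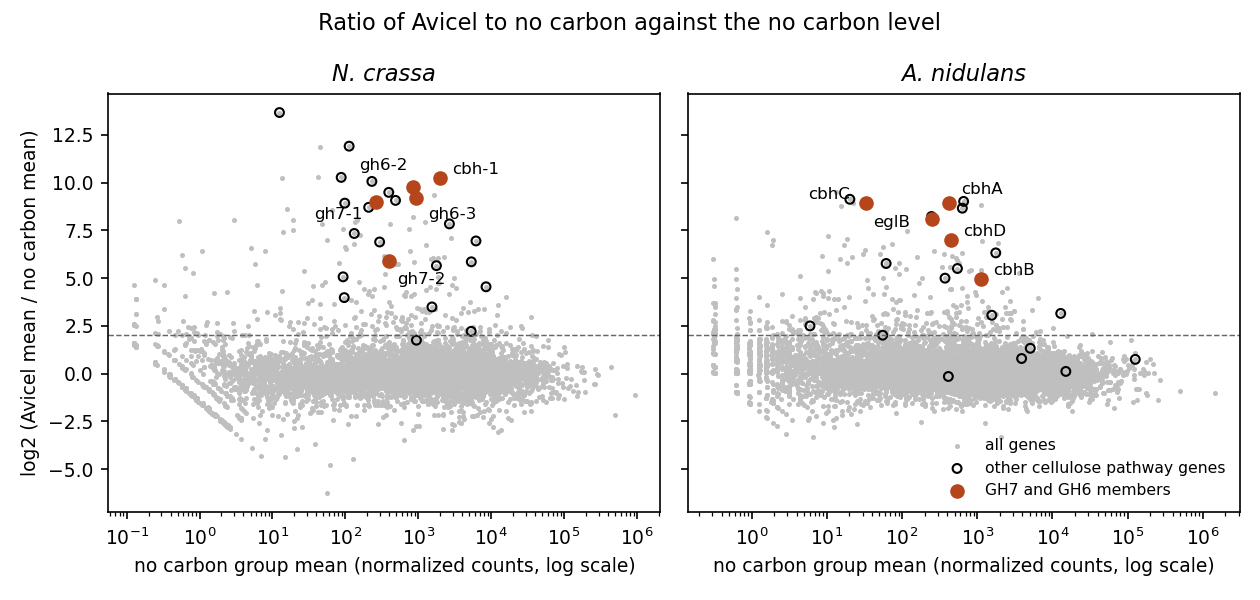
Log2 ratio of the Avicel mean to the no carbon mean (vertical) against the no carbon mean in normalized counts (horizontal, log scale) for genes with both means above 0. Grey dots are all genes, open circles other cellulose pathway genes and filled circles the GH7 and GH6 members, and the dashed line marks 4-fold; the members lie far above the bulk of genes at no carbon means of 33.4 to 1978.

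Setting each member against each other member of its species gives 10 pairs per species. In *N. crassa* 4 pairs differed in log2 ratio by more than 2 standard errors, and these were the 4 that included *gh7-2*. The widest was *cbh-1* with *gh7-2*, whose ratio to each other was 101 on Avicel, against 4.97 on no carbon, a shift of 20.2-fold. The other 4 genes, 2 of each family, had log2 ratios of 8.96 to 10.24 and did not separate by family. In *A. nidulans* 6 pairs differed by more than 2 standard errors. These were the 4 pairs that included *cbhB*, together with *cbhD* against *cbhA* and *cbhD* against *cbhC*. By the yardstick's limit of 1.33 the genes did not fall into clear groups. The gene *cbhD* differed from *cbhB* by 2.07 but from *eglB* by only 1.08, and a narrower limit could part *cbhD* from *eglB*. By log2 ratio both GH6 genes lay between the GH7 genes *cbhA* and *cbhB*.

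The make-up of each family, as shares of its summed normalized counts, moved accordingly. In *N. crassa*, *cbh-1* made up 93.9% of GH7 counts on Avicel, against 74.9% on no carbon. The share of *gh7-1* was 5.19% on Avicel, against 10.1% on no carbon, and that of *gh7-2* was 0.932% on Avicel, against 15.1% on no carbon. The GH6 counts of *N. crassa* were shared almost evenly, 58.4% to *gh6-2* on Avicel, against 48.0% on no carbon. In *A. nidulans*, *cbhA* held 66.9% of GH7 counts on Avicel, against 23.5% on no carbon, whereas *cbhB* held 11.1% on Avicel, against 62.5% on no carbon. By counts the leading GH7 gene of *A. nidulans* was thus a different one in each condition. The share of *eglB* was 22.0% on Avicel, against 14.0% on no carbon. Among GH6 counts *cbhD* led in both conditions, with 78.0% on Avicel, against 93.1% on no carbon. These are shares of reads, and a longer gene takes more reads for the same number of transcripts, so both the shares and their change between conditions depend on gene length. Length cancels only in the shift of the ratio of 2 genes given before.

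**Figure D3:**
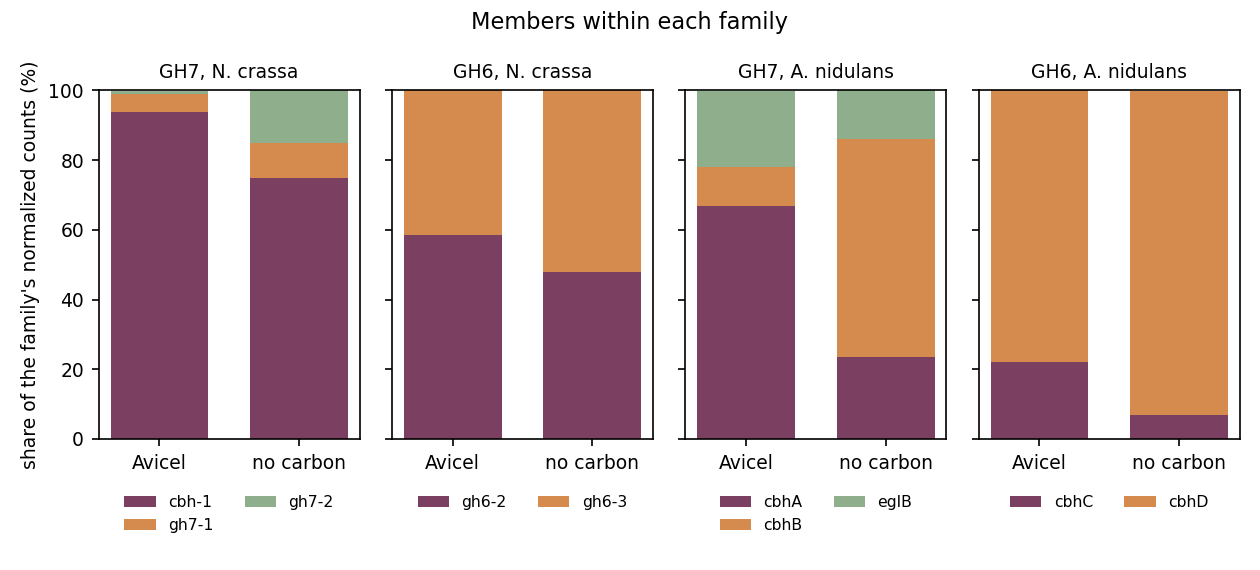
Share of each member in the summed normalized counts of its family (percent, vertical), with Avicel left of no carbon, for GH7 and GH6 in each species. The *cbhA* part grows to 66.9% on Avicel, against 23.5% on no carbon, and the *gh7-2* part shrinks to 0.932%, against 15.1%.

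Together the 5 genes of *N. crassa* took 6.69% of the counts of their table on Avicel, against 0.0106% on no carbon, an 868-fold ratio of sums that was 590-fold without *cbh-1*. In *A. nidulans* they took 0.819% on Avicel, against 0.00536% on no carbon, a 168-fold ratio that was 95.0-fold without *cbhA*. By family, GH7 took 4.46% on Avicel, against 0.00632% on no carbon in *N. crassa*. In *A. nidulans* GH7 took 0.662% on Avicel, against 0.00423% on no carbon. GH6 took 2.24% on Avicel, against 0.00425% on no carbon in *N. crassa*. In *A. nidulans* GH6 took 0.158% on Avicel, against 0.00114% on no carbon. A sum is led by its largest gene. Without *cbh-1* the GH7 ratio of *N. crassa* was 235-fold, and without *cbhA* that of *A. nidulans* was 74.6-fold. For GH6 of *A. nidulans* the ratio of sums was 153-fold and became 486-fold when *cbhD* was left out, which leaves *cbhC* alone.

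Across the species the tables were normalized separately, so only ratios within a table were set side by side. The study pairs the members in 7 ways, some genes having more than 1 partner, and in 4 of the pairs the log2 ratios differed by more than 2 standard errors of a difference between species, 1.55. The log2 ratio of *cbh-1* exceeded that of *cbhB* by 5.31, that of *gh6-2* exceeded that of *cbhD* by 2.77, and that of *gh6-3* exceeded that of *cbhD* by 2.17. In the other direction, the log2 ratio of *gh7-2* minus that of *eglB* was -2.18, so *eglB* moved further than *gh7-2*. The remaining pairs lay within the limit. They were *cbh-1* with *cbhA*, at 1.31, *gh7-1* with *eglB*, at 0.87, and *gh6-2* with *cbhC*, at 0.85. Each *A. nidulans* member other than *cbhB* and *cbhD* therefore had a listed partner from whose ratio its own was not resolved, and *cbhB* and *cbhD* had none. The pairs are not all of one kind. For *eglB* the partner within the limit was *gh7-1*, but the study's list of conserved orthologs pairs *eglB* with *gh7-2*, which lay past the limit. Neither *gh7-1* nor *gh6-3* is in that list, and the study matched *gh6-3* to *cbhD* among its paralogs. That the remaining pairs lay within the limit does not show that they moved alike, since differences of up to 1.55 on the log2 scale would not be seen.

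**Figure D4:**
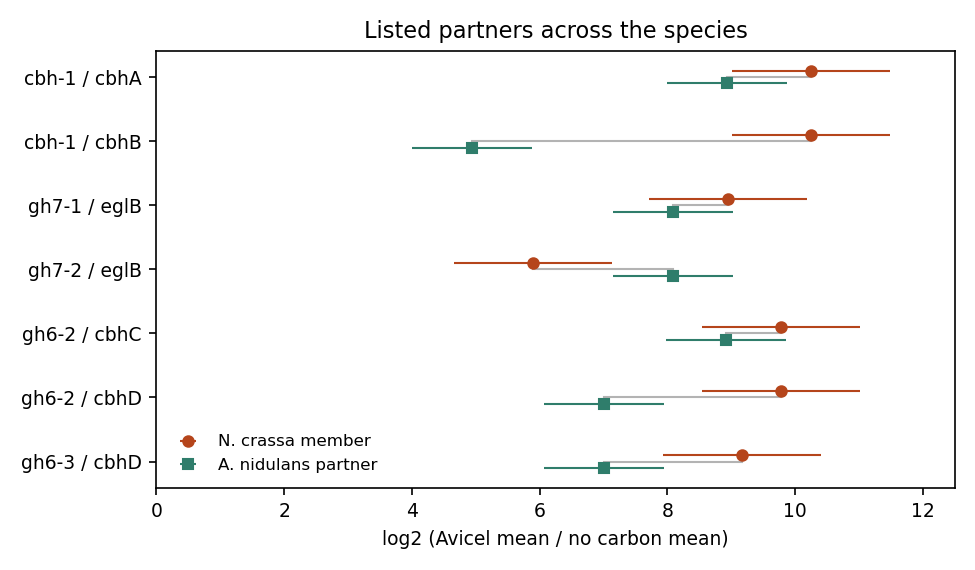
Log2 ratio of the Avicel mean to the no carbon mean for each listed pair, with *N. crassa* members as circles and their *A. nidulans* partners as squares. Bars are 2 standard errors of the yardstick (1.24 for *N. crassa*, 0.938 for *A. nidulans*), and the pair *cbh-1* and *cbhB* is the widest apart, at 5.31.

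Other genes of these families lay lower. In *N. crassa*, 3 further genes carry a GH6 or GH7 symbol in RefSeq and are outside the lists of induced genes. The gene *gh6-1* (NCU03996) had an authors' mean of 112 normalized counts on Avicel, against 139 on no carbon, a log2 ratio of -0.32. Its Avicel libraries held 134, 160 and 41.5 normalized counts, and the lowest of them, with 7 reads, was the shallow library. Without that library the Avicel mean was 147 and the log2 ratio 0.077, so the sign of the ratio rests on it. For *gh7-4* (NCU05104) the Avicel libraries held 50.2, 56.6 and 166 normalized counts, against 21.6, 7.97 and 8.76 on no carbon. The groups did not overlap, but the share of genes of such counts whose libraries separate in this way was not worked out. The authors' mean of *gh7-4* was 90.9 on Avicel, against 12.8 on no carbon, 7.12-fold higher with a log2 ratio of 2.83. The highest Avicel value of *gh7-4* again came from the shallow library, where it rests on 28 reads, and the other Avicel libraries still lay above every no carbon library. Without the shallow library the Avicel mean was 53.4 and the ratio 4.18-fold. Without the highest no carbon library the ratio was 10.9-fold. The gene *gh7-3* (NCU04027) had 1 read in all Avicel libraries together and 7 in all no carbon libraries, too few for a ratio. The log2 ratios of *gh6-1* and *gh7-4* lay below that of the lowest *N. crassa* member, *gh7-2*, at 5.90.

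Cellulases work with other secreted enzymes and with uptake of the released sugars. Of 20 other *N. crassa* genes of this pathway that the study lists or names, 19 were at least 4-fold higher on Avicel. None was 4-fold lower, and of 17 in *A. nidulans* 12 were higher and none lower. Over all genes 3.00% (*N. crassa*) and 3.38% (*A. nidulans*) were at least 4-fold higher. With both groups scaled to equal sums the counts were 18 of 20 and 11 of 17, since *clr-1*, at 4.62-fold, and the monooxygenase gene AN1602, at 4.02-fold, then lay under the limit. These lists also come largely from genes chosen as induced. Polysaccharide monooxygenases, which cut crystalline cellulose by oxidation, were higher in 9 of 10 listed *N. crassa* genes and 5 of 5 listed *A. nidulans* genes. Their median log2 ratios were 8.81 (*N. crassa*) and 5.76 (*A. nidulans*). The study predicts further monooxygenase genes in both species that are not listed here, so these counts and medians do not describe the whole class. The cellobiose dehydrogenase that supplies them with electrons had a log2 ratio of 9.48 for *cdh-1* of *N. crassa*, against 9.01 for AN7230 of *A. nidulans*, and the GH5 endoglucanase one of 11.90 (*gh5-1*), against 8.22 (*eglA*). The β-glucosidases, which split cellobiose into glucose, were higher in 4 of 4 *N. crassa* genes and 3 of 6 *A. nidulans* genes. The transporters of cellodextrins *cdt-1* and *cdt-2* had log2 ratios of 5.85 and 6.94. The members' regulators moved unequally, with *clr-2* at 34926 normalized counts on Avicel, against 295 on no carbon, a log2 ratio of 6.89, and *clrB* at 12697 on Avicel, against 5082 on no carbon, a log2 ratio of 1.32. The upstream regulator gene *clr-1* had a log2 ratio of 2.21, and its homolog *clrA* one of 0.79.

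By Avicel level and ratio together, the genes most like *cbh-1* among 5495 *N. crassa* genes with an Avicel mean of at least 1000 were *gh11-2* (NCU07225), *gh6-2*, *gh6-3*, *gh5-1* and *gh1-1*, at distances of 1.51 to 3.12 on the log2 scales. The xylanase gene *gh11-2* had an authors' mean of 1042360 normalized counts on Avicel, against 1626 on no carbon, a log2 ratio of 9.32. Those most like *cbhA* among 5706 *A. nidulans* genes were AN3860, a monooxygenase gene, AN7230, AN1818, *eglA* and *eglB*, at distances of 0.417 to 1.82. The closest of them, AN3860, had an authors' mean of 255946 on Avicel, against 635 on no carbon, a log2 ratio of 8.66. Both GH6 genes of *N. crassa* were thus among the nearest 5 to *cbh-1*, while no GH6 gene was among the nearest 5 to *cbhA*. This measure used 2 group means for each gene, and counts were not corrected for gene length.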

How the data were processed

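Total RNA of hyphae was enriched for mRNA with oligo-dT beads and sequenced. The authors aligned reads to predicted transcripts (TopHat 2.0.4) and counted those on unique exons with HTSeq (version not given in the sources used here). What the authors deposited is a signal, the mean over a group's libraries of counts divided by the size factors that the authors took from DESeq, 1 table per species with 9582 *N. crassa* and 10596 *A. nidulans* genes. The fold changes, p-values and adjusted p-values in the tables hold the authors' own comparison and were not used. The submitters' processing notes also name CASAVA 1.8.0 and Cufflinks 2.0.2.

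Ratios, ranks, percentiles, shares and sums were computed from the means with Python 3.11.15, numpy 2.4.6 and pandas 2.3.3, without a pseudocount, and figures were drawn with matplotlib 3.10.9. Because a mean is a sum of whole reads over size factors, the size factors and, for low means, the reads of single libraries were recovered from the 10 digits given. In simulated data the size factors came back for 20 of 20 groups. Of the low simulated means checked for reads, 45674 gave the right reads, 0 gave wrong ones and 360 gave no single set. Of the members, only *cbhC* on no carbon had a mean in the range checked. Recovery of reads at the higher means of the other members was not tested in this way. An earlier form of the search could miss a size factor whose single reads were rare and was replaced, which changed no value here. Each deposited mean under 20 (922 to 1161 per group) had a whole-read solution. Libraries are numbered by size factor, the largest first, and were not matched to replicate numbers. Reads were sought for means up to 2000. No Avicel library of a member, and no no carbon library of *cbh-1*, *gh6-2*, *gh6-3* or *cbhB*, could be given a value of its own. Counting intervals are Poisson intervals at 95%, computed as if every library of a group had the smallest size factor of that group. They are therefore wider than the counting error of the actual reads. Other scalings, pseudocounts of 1 and 10, fold limits of 2 and 8 and other family summaries were tried as alternatives.

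The genes named are the 10 members, the pathway genes, 4 steady genes of each species, the further GH6 and GH7 genes and, for the member highest on Avicel in each species, the 5 nearest genes by Euclidean distance in log2 Avicel mean and log2 ratio. Members and lists were chosen with earlier results of these data known. RefSeq names were found for 9078 of the *N. crassa* genes, including the 5 members. The pathway and partner lists come from the study. The genome build of the tables is not given in the sources used here, so no coordinates are given.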

Additional observations from a re-analysis of the deposited data

How the results depend on the processing

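The log2 ratio of each of the 10 genes was recomputed with both groups scaled to equal sums, recentred on the median gene, and with 1 or 10 added to the means. None of these ratios changed direction. Equal sums moved every log2 ratio by -0.45 (*N. crassa*) or -0.14 (*A. nidulans*), giving 9.79 for *cbh-1*, 5.45 for *gh7-2* and 4.80 for *cbhB*, and changed no partner pair's side of the limit. The count of members past the fold limit stayed at 5 in each species at limits of 2 and 8, where the share of all genes was 8.29% and 1.54% (*N. crassa*) or 10.6% and 1.53% (*A. nidulans*). The family sums other than GH6 of *N. crassa* depended on their members. The log2 ratio of sums for GH7 was 9.92 in *N. crassa*, 7.88 without *cbh-1* and 8.96 as the median of the members. For GH7 of *A. nidulans* it was 7.43, 6.22 without *cbhA* and 8.08 as the median. For GH6 of *A. nidulans* it was 7.26, 8.92 without *cbhD* and 7.96 as the median. For GH6 of *N. crassa* it was 9.50, 9.17 without *gh6-2* and 9.48 as the median. Leaving out each no carbon library in turn was possible for 3 genes and gave log2 ratios of 8.67 to 9.09 for *cbhC*, 6.92 to 7.10 for *cbhD* and 7.93 to 8.20 for *eglB*. Leaving out each recovered library in turn, an alternative chosen after the data were seen, gave -0.67 to 0.077 for *gh6-1*, which reversed without the shallow Avicel library, and 2.06 to 3.44 for *gh7-4*.

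No paired analysis was possible because the tables hold group means and the recovered libraries carry no replicate number. The planned order of levels per coding length and the planned search for relatives by protein sequence were not run, since neither lengths nor proteins were at hand, and RefSeq symbols were used in place of the search after the data were seen. The yardstick rests on genes with means of 20 to 60, a band chosen after the data were seen, and is carried over to members with higher means, whose spread between cultures was not measured on Avicel.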

Other observations

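On the chromosomes of *N. crassa*, 20 genes lay within 2 places of a member in the RefSeq order (assembly NC12, used for order only). Of these, 14 had values, all with both means above 0, and the others were absent from the deposited values. The median log2 ratio of the 14 was 0.55. Beside *gh7-1*, NCU05056 had an authors' mean of 488 normalized counts on Avicel, against 5.05 on no carbon, a log2 ratio of 6.60, while NCU05058 on the other side had 3.54 on Avicel, against 19.7 on no carbon, a log2 ratio of -2.48. Beside *cbh-1*, NCU07339 had 1191 on Avicel, against 48.6 on no carbon, a log2 ratio of 4.62. These 3 were the only ones of the 14 past 4-fold in either direction, 2 higher and 1 lower. Over all *N. crassa* genes 3.00% were that much higher and 1.08% that much lower. Both means of NCU05058 and the no carbon mean of NCU05056 were low, and no counting error is given for them. The neighbours were looked at after the data were seen, and so few genes allow no statement about neighbours as a set.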
